A study of Mus musculus with 9 samples.

Results

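The myelin and oligodendrocyte lineage genes are 32 genes chosen by symbol, 23 of them genes of mature, myelinating oligodendrocytes and 9 of them genes of oligodendrocyte precursors and of cells early in differentiation. All 32 had a row in the table of 24489 rows, and all passed the filter of a mean of at least 1 FPKM (fragments per kilobase of a transcript, relative to all mapped fragments of the library) over the libraries, as did 12327 rows in all. RNA came from area CA1 of the hippocampus of C57BL/J6 mice aged 9 to 12 weeks, in 9 libraries that form 3 groups of 3 biological replicates. Every mouse had received an adeno-associated virus (AAV) used to deliver genes. In the control group the virus carried a scrambled short hairpin RNA (shRNA). In the naive and the trained groups it carried an shRNA against H2A.Z, a histone variant, and only the trained mice of these groups underwent contextual fear conditioning, in which a chamber is paired with a foot shock. The sources used here do not say whether control mice were trained, which cells the virus entered or which promoter drove the hairpins. The groups are called control, naive and trained below.

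Oligodendrocytes wrap axons in myelin, a stack of membrane held together by proteins such as myelin basic protein and rich in cholesterol and galactolipids. They arise from precursor cells that carry the receptor of platelet-derived growth factor and the proteoglycan NG2, and that go on dividing in the adult brain. The transcription factors OLIG2, SOX10 and NKX2-2 specify the lineage, and MYRF turns on the myelin genes as cells mature. In the hippocampus myelin lies in the alveus and fimbria and along axons of the layers of CA1.

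Each unit of FPKM stood for an estimated 18.5 to 26.5 fragments per kilobase of transcript, depending on the library, judged from the steps between low values because counts were not used here. H2afz, which encodes the main form of the targeted histone, stood at 26.1 to 28.7 FPKM in the control libraries, 25.1 to 28.0 in the naive libraries and 23.9 to 28.5 in the trained libraries, so the ranges of the groups overlapped. Its log2 fold change was -0.0061 in naive against control (limma adjusted p = 0.977) and -0.056 in trained against control (limma adjusted p = 0.828). The groups are therefore named by their labels. Central myelin genes were plainly present, with Mbp at 367 FPKM or more in each library. Nothing in the labels says that a shared number pairs samples, so replicate numbers only name the libraries.

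Promoter windows came from RefSeq (build GRCm38.p6) and ran from 250 bases before to 50 bases after a start site. Windows were used for 23 of the 32 members, 18 mature and 5 precursor, with 31 windows in all. The remaining members, Mbp and Gpr17 among them, have no window here and are left out of the motif counts of members. Those counts therefore say nothing about the promoter of Mbp, the most abundant member. The windows of 4 mature genes that hold the MYRF motif and of a pair of precursor genes described below are shown. They run 5′ to 3′ on the strand of the gene, as the regulatory sequence next to genes whose levels are compared here. Capitals mark the motifs searched on both strands: the SOX core, spelled ACAAAG in its usual form and ACAATG in a variant, the MYRF motif, spelled CTGGCAC in its usual form and CTGGTAC in a variant, the OLIG E-box, spelled CAGCTG in its usual form, CATATG as one variant and also CAGATG as another, and the TATA box, spelled TATAAA.
Hapln2 promoter, chr3:88027462-88027761, minus strand: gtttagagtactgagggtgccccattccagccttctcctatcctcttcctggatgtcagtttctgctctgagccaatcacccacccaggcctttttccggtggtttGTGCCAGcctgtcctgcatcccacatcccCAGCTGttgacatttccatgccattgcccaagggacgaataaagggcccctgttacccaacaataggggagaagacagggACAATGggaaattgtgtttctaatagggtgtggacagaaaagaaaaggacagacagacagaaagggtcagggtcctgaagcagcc
Mag promoter, chr7:30914814-30915113, minus strand: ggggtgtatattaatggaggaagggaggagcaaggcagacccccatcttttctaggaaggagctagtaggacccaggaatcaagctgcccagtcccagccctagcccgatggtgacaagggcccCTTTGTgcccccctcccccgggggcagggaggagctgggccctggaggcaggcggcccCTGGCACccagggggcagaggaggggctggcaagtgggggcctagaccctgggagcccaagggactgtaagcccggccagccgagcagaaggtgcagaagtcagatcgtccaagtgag
Cnp promoter, chr11:100574689-100574988, plus strand: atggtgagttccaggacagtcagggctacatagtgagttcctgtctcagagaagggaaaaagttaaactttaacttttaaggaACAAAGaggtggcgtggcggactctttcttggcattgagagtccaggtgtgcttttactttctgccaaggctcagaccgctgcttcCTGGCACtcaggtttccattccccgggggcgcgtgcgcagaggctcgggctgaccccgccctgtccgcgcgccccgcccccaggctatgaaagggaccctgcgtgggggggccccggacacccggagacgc
Mog promoter, chr17:37023349-37023648, minus strand: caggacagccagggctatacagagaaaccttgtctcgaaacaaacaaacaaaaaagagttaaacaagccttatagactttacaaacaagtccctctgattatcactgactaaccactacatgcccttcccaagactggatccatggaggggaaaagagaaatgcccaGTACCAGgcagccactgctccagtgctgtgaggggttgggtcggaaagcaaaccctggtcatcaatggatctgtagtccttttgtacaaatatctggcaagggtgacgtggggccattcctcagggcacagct
Olig2 promoter, chr16:91225300-91225599, plus strand: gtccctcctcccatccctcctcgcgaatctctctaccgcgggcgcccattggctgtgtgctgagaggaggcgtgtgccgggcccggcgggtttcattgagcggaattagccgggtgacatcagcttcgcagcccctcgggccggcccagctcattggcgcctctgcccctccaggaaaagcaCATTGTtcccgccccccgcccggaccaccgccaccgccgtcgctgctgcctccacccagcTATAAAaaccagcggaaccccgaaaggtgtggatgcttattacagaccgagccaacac
Pdgfra promoter, chr5:75152001-75152300, plus strand: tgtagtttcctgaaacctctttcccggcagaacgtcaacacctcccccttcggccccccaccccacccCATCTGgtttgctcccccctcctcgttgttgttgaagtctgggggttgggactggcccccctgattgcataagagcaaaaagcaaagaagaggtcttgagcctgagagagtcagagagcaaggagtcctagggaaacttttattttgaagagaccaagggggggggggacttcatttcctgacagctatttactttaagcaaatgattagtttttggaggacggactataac
The MYRF motif was in 6 of 26 windows of mature members, belonging to 5 of 18 genes (Hapln2, Mag, Cnp, Mog and Opalin), and in 0 of 5 windows of precursor members. It was in 7.1% of all 32851 promoter windows. In Hapln2 it lay at -144 from the start site, with an OLIG E-box at -115 and a SOX core at -35. In the Mag window shown it lay at -68, in Cnp at -81 and in Mog at -83. Another Mag window, which overlaps the one shown, holds the same copy at -9 from its own start site. That copy is therefore counted in both windows among the 6. The SOX core was in 11 of 26 mature windows and 2 of 5 precursor windows, beside 28.6% of all windows. The OLIG E-box was in 12 of 26 and 2 of 5, beside 33.4%, and the TATA box in 2 of 26 and 1 of 5, beside 13.6%. In Olig2 a SOX core lay at -68 and a TATA box at -8, and in Pdgfra an E-box at -182. Positions are counted from the RefSeq start site of each window. For Olig2 and Hapln2 that site lies inside the gene span printed below, which comes from another annotation. The motifs named in Olig2 and the SOX core named in Hapln2 therefore lie inside those spans. None of the marked motifs in the windows shown overlap. A match describes the letters of a window and no binding was measured.

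Myelin genes were more variable between libraries than the median gene. Mbp, which encodes myelin basic protein, the protein that compacts the membrane, was the most abundant member. It stood at 551, 904 and 576 FPKM in the control libraries, 367, 424 and 627 in the naive libraries and 487, 641 and 594 in the trained libraries. Each group thus held a library with much more Mbp than its lowest one, and the ranges of all 3 groups overlapped. Mag, the myelin-associated glycoprotein that faces the axon, ran alike, at 46.1, 75.1 and 54.7 in control, 40.2, 41.3 and 59.0 in naive and 43.4, 58.6 and 52.6 in trained libraries. Mog, which encodes a glycoprotein on the outer face of myelin, stood at 27.4, 41.7 and 31.7, then 23.4, 24.7 and 38.1, then 25.6, 36.3 and 32.6 in the same order.

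In all 22 mature members with no library listed at 0, control replicate 2 was the highest of the control libraries and naive replicate 3 the highest of the naive ones. Among all genes tested without a 0 the same libraries were highest for 31.8% and 41.2%. Trained replicate 2 was the highest trained library for 18 of 22, beside 42.9% of all genes. The lowest library of a group was control replicate 1 for 20 of 22 mature members, naive replicate 1 for 19 of 22 and trained replicate 1 for 20 of 22, beside 44.3%, 41.2% and 39.6% of all genes. Most mature members thus had the same highest and the same lowest library inside each group. The highest of the 9 libraries stood 1.9 times above the lowest in the median mature member (range 1.54 for Cnp to 2.91 for Ppp1r14a), 1.57 times in the median precursor member and 1.28 times in the median gene tested. In bulk RNA, fewer oligodendrocytes and less RNA per oligodendrocyte cannot be told apart.

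The remaining mature members stood below Mbp in every library. Over the 9 libraries Mal, a proteolipid gene of compact myelin, spanned 57.5 to 98.0 FPKM, and Cldn11, which encodes the claudin of the tight junctions between myelin turns, spanned 55.9 to 95.3. Ugt8a spanned 12.6 to 22.9 and Fa2h 7.96 to 14.9, both enzymes of galactolipid synthesis. Tmem88b, a membrane protein gene, spanned 12.7 to 25.4. For Mal, Ugt8a, Fa2h and Tmem88b the highest library was control replicate 2, and for Cldn11 it was naive replicate 3. Ppp1r14a, which encodes an inhibitor of a protein phosphatase, ran from 7.10 in naive replicate 1 to 20.7 in control replicate 2, the widest range as highest over lowest among the members without a 0. Aspa, whose enzyme splits N-acetylaspartate and so supplies acetate for lipids, spanned 5.82 to 12.3, and Adamts4, a secreted protease gene, spanned 3.19 to 5.61. Both had their lowest library in naive replicate 2 and their highest in control replicate 2.

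**Figure D1:**
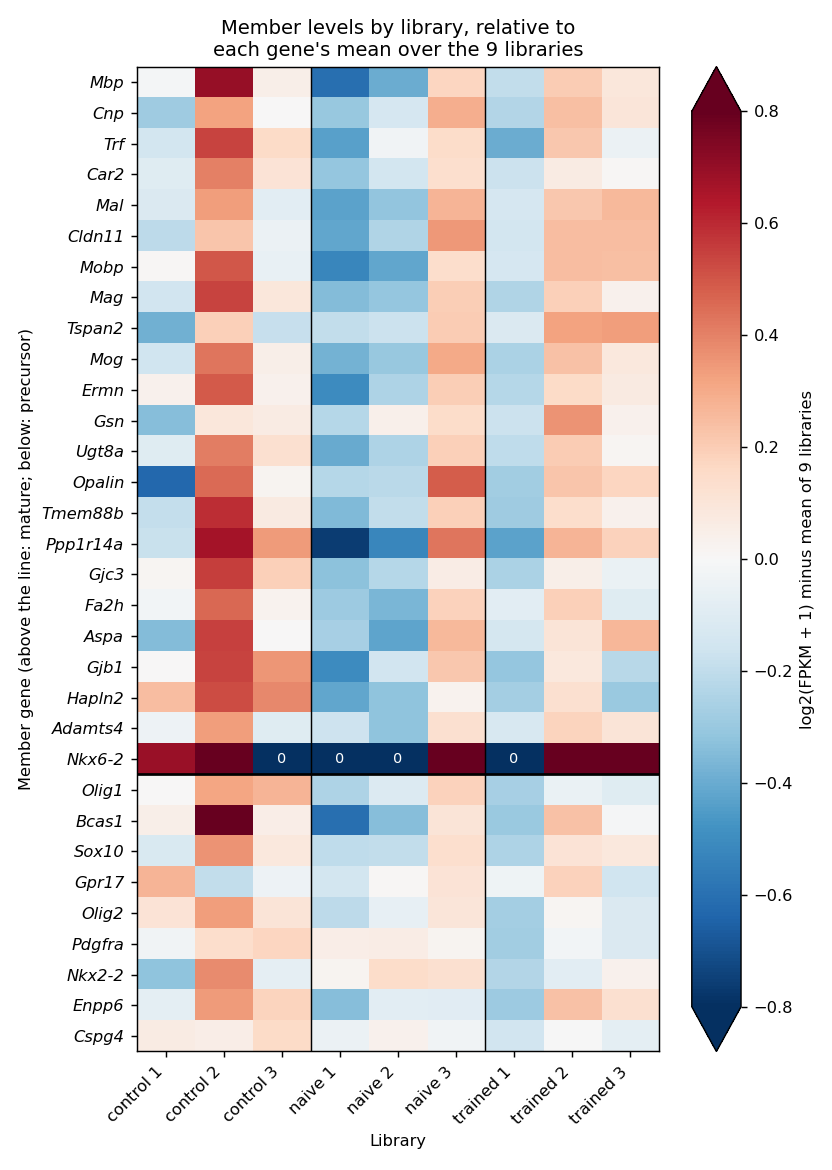
Level of each of the 32 members (rows, mature above the line and precursor below it, from high to low mean) in each of the 9 libraries (columns), as log2(FPKM + 1) minus the gene's mean over the 9 libraries; the colour scale ends at 0.8 in either direction, and a 0 marks a library in which the gene is listed at 0. Control replicate 2 is the highest control library in all 22 mature members without a 0, and naive replicate 1 is the lowest naive library in 19 of them.

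Among the 9 precursor members, control replicate 2 was the highest control library for 6, naive replicate 3 the highest naive library for 5 and trained replicate 2 the highest trained library for 8. Pdgfra, the receptor of platelet-derived growth factor (chromosome 5, 75152292 to 75198215, plus strand, GRCm38), stood at 6.75, 7.70 and 7.87 FPKM in control, 7.18, 7.23 and 7.0 in naive and 5.5, 6.77 and 6.28 in trained libraries. Cspg4, which encodes NG2 (chromosome 9, 56865033 to 56899870, plus strand), stood at 1.68, 1.66 and 1.84, then 1.48, 1.62 and 1.51, then 1.30, 1.55 and 1.42. The naive libraries thus lay close together for both genes, where Mbp spanned 367 to 627. Gpr17, a receptor gene of cells committed to differentiation, was lowest in control replicate 2 among all 9 libraries, at 8.90 against 9.13 to 12.7 in the others. Sox10, a transcription factor gene active throughout the lineage, stood at 10.1, 14.5 and 11.8 in control, 9.49, 9.54 and 12.2 in naive and 9.21, 12.1 and 11.8 in trained libraries, with the same high libraries as the mature genes in control and naive. Bcas1 and Enpp6, genes of cells that begin to myelinate, varied as widely as mature genes, with the highest library 2.73 and 2.16 times above the lowest.

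The naive libraries were compared with the control libraries, which sets the H2A.Z hairpin against the scrambled one and, should the controls have been trained, holds that difference too. Most members stood lower in naive libraries, 20 of 23 mature and 8 of 9 precursor members by their estimates, beside 44.8% of all genes tested. The median log2 fold change of FPKM + 1 was -0.29 for mature and -0.20 for precursor members, against 0.016 for all genes. With the mean level of dentate gyrus markers as a covariate these medians were -0.00015 and -0.022. That level itself differed by group, with a mean log2 of 3.17 to 4.08 in control and 4.05 to 4.34 in naive libraries. The fit therefore cannot tell dentate content apart from the group. No member passed the threshold in limma after Benjamini-Hochberg adjustment over all genes (0 of 32 in either direction, smallest adjusted p = 0.234), and 0.0% of all genes passed in either direction. At an unadjusted p under 0.05, 4 of 32 members were lower and 0 higher, beside 5.69% and 9.81% of all genes. In 4 of 32 members every naive library lay below every control library, beside 8.23% of all genes, and in 0 of 32 above, beside 11.2%.

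Those members were Hapln2, Olig2, Enpp6 and Cspg4. Hapln2, a link protein gene of the matrix at nodes of Ranvier (chromosome 3, 88021750 to 88027583, minus strand, GRCm38), stood at 5.48, 6.83 and 6.12 FPKM in control, 3.09, 3.37 and 4.55 in naive and 3.52, 4.97 and 3.44 in trained libraries. All 6 libraries with the H2A.Z hairpin were below all 3 control libraries. Its level was 6.14 ± 0.674 (SD, n = 3) in control and 3.67 ± 0.775 in naive libraries, a log2 fold change of -0.62 (SE 0.15, limma adjusted p = 0.234). Its 95% confidence interval ran from 0.516 to 0.821 times control, on FPKM + 1. This was the smallest adjusted p among the members in naive against control.

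The connexin genes came next among mature members by unadjusted p. Gjc3, which encodes connexin 29, found along the inner face of myelin (chromosome 5, 137953461 to 137963098, minus strand), stood at 13.2, 19.5 and 15 FPKM in control libraries and 10.1, 10.9 and 13.6 in naive ones. The groups overlapped only in that the highest naive library exceeded the lowest control library (limma log2 fold change -0.42, SE 0.15, adjusted p = 0.272). Gjb1, which encodes connexin 32 (chromosome X, 101376378 to 101385629, plus strand), stood at 5.38, 8.27 and 7.13 in control libraries and 3.50, 4.73 and 6.4 in naive ones (limma log2 fold change -0.44, SE 0.20, adjusted p = 0.327). Connexins form channels that couple glial cells. Mbp, at 677 ± 197 and 473 ± 137, had a log2 fold change of -0.52 (SE 0.24, limma adjusted p = 0.338), with an interval of 0.481 to 1.015 times the control level. Mobp, another protein gene of compact myelin, stood at 56.3, 79.4 and 53.7 in control libraries and 38.7, 41.8 and 61.7 in naive ones (log2 fold change -0.41, limma adjusted p = 0.365). Ermn, which encodes ermin, a cytoskeletal protein of late differentiation, stood at 19.9, 27.6 and 19.9 and then 13.4, 16.2 and 22.4 (log2 fold change -0.37, limma adjusted p = 0.389).

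Several other myelin genes stood closer to the control level. Cnp, an enzyme gene of the non-compact myelin, stood at 86.4, 132 and 105 FPKM in control libraries and 85.3, 96.0 and 129 in naive ones (limma log2 fold change -0.061, SE 0.20, adjusted p = 0.90). Tspan2, a tetraspanin gene, stood at 29.1 ± 6.26 and 30.4 ± 5.10, Opalin, a membrane glycoprotein gene, at 16.7 ± 6.30 and 17.1 ± 5.46, and Gsn, the gene of the actin-severing protein gelsolin, at 17.4 ± 2.91 and 18.0 ± 2.49. These 3 were the mature members with estimates above 0. For Mag (log2 fold change -0.31, limma adjusted p = 0.488) and Mog (-0.23, limma adjusted p = 0.628) the difference was also within the spread between libraries. The lipid enzyme genes Ugt8a, which makes galactosylceramide, and Fa2h, which hydroxylates its fatty acid, had log2 fold changes of -0.30 and -0.31. The other mature members, namely Car2, Ppp1r14a, Trf, Tmem88b, Adamts4, Mal, Aspa, Cldn11 and Nkx6-2, lay between -0.67 and -0.089. Among them Ppp1r14a stood at -0.56, farther from the control level than Mbp. The most extreme of these other members was the transcription factor gene Nkx6-2. It is listed at 0 in control replicate 3, naive replicates 1 and 2 and trained replicate 1. The other libraries held 2.64 to 4.02, so its fold change rests on those entries of 0. In the same table Fdft1, an enzyme gene of cholesterol synthesis that cells in general use, is listed at 0 in every library.

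**Figure D2:**
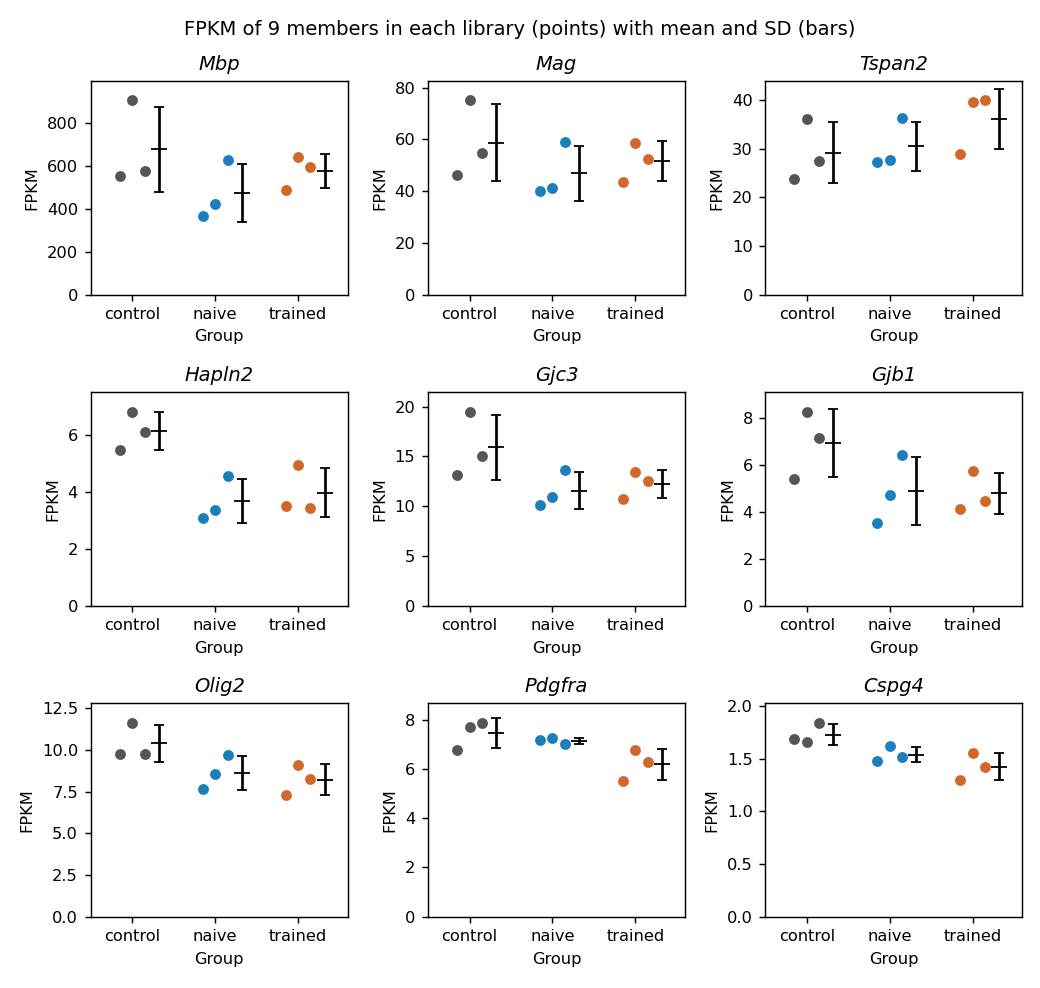
FPKM (vertical axes, from 0) of 9 members in each of the 3 control, 3 naive and 3 trained libraries (points), with the group mean and SD at the right of each group (bars). Hapln2, Olig2 and Cspg4 are lower in each of the 6 H2A.Z shRNA libraries than in any control library, while the groups overlap for Mbp, Mag and Tspan2.

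Among precursor members, Olig2, the transcription factor gene that specifies the lineage (chromosome 16, 91225457 to 91228677, plus strand), stood at 9.78, 11.6 and 9.76 FPKM in control, 7.67, 8.55 and 9.71 in naive and 7.28, 9.12 and 8.25 in trained libraries. All 6 libraries with the H2A.Z hairpin were lower than the control ones, although the highest naive library came within 0.1 FPKM of the lowest control library. The log2 fold change was -0.24 in naive against control (SE 0.10, limma adjusted p = 0.317). Its neighbour Olig1, which encodes a related factor of differentiation, stood at 34.6, 43.2 and 42.0 in control libraries and 28.9, 32 and 39.4 in naive ones, which overlap (limma log2 fold change -0.25, SE 0.12, adjusted p = 0.355). Bcas1 stood at 29.5, 50.3 and 29.5 and then 18.4, 22.3 and 30.7, with overlap through naive replicate 3 (limma log2 fold change -0.58, SE 0.25, adjusted p = 0.314). Cspg4 had a log2 fold change of -0.10 (SE 0.076, limma adjusted p = 0.536), Sox10 one of -0.20 (SE 0.15, limma adjusted p = 0.544) and Pdgfra one of -0.051 (SE 0.077, limma adjusted p = 0.779). The interval for Pdgfra was 0.856 to 1.09 times the control level. Enpp6 stood at 1.48, 2.31 and 1.96 in control libraries and 1.07, 1.47 and 1.46 in naive ones, just without overlap (limma log2 fold change -0.32, SE 0.16, adjusted p = 0.375). Nkx2-2, another factor gene of early differentiation, was the 1 precursor member with an estimate above 0.

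The naive medians depended on single libraries. Leaving out control replicate 2 gave a mature median of -0.11, leaving out naive replicate 1 gave -0.16 and leaving out naive replicate 3 gave -0.45. The precursor medians of these fits were -0.13, -0.14 and -0.31, and that without naive replicate 2 was -0.14. With each library left out in turn, 0 members passed the threshold.

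The trained libraries were compared with the same control libraries, so both comparisons share any library that stands apart among the controls. Among mature genes 15 of 23 were below 0, with a median log2 fold change of -0.14, while all 9 precursor members were below 0, with a median of -0.17. With the dentate covariate the medians were -0.0027 and -0.13. In all genes tested 52.7% were below 0, with a median of -0.0070. Again 0 of 32 members passed in limma (smallest adjusted p = 0.560), beside 0.0% of all genes lower and 0.00811% higher. At an unadjusted p under 0.05, 5 of 32 were lower and 0 higher, beside 3.8% and 3.92% of all genes. In 4 of 32 members, namely Hapln2, Olig1, Olig2 and Cspg4, every trained library lay below every control library, beside 6.08% of all genes, and in 0 of 32 above, beside 6.4%.

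Hapln2 had a log2 fold change of -0.53 in trained against control (SE 0.15, limma adjusted p = 0.560), with a level of 3.97 ± 0.861 in trained libraries. Gjc3, at 10.7, 13.4 and 12.5 FPKM in trained libraries, had one of -0.34 (SE 0.15, limma adjusted p = 0.642). Gjb1, at 4.14, 5.75 and 4.45, had one of -0.45 (SE 0.20, limma adjusted p = 0.642), and in both connexin genes only the highest trained library reached above the lowest control library. Tspan2 lay on the other side, at 23.8, 36.0 and 27.5 in control and 28.9, 39.5 and 39.9 in trained libraries (limma log2 fold change 0.31, SE 0.18, adjusted p = 0.689). Trf, which encodes the iron carrier transferrin, stood at 85.8, 139 and 105.97 in control libraries and 72.0, 111 and 92.1 in trained ones, which overlap. Car2, which encodes carbonic anhydrase 2, stood at 86.5, 123 and 99.8 and then 82.3, 96.9 and 93.3, which also overlap. Their log2 fold changes were -0.26 and -0.17 (limma adjusted p = 0.737 and 0.741). Mbp at -0.21, Mag at -0.16, Mog at -0.083 and Cnp at 0.022 differed by less than the spread between libraries (limma adjusted p = 0.804, 0.822, 0.916 and 0.979).

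Among precursor genes, Pdgfra at 7.44 ± 0.604 in control and 6.18 ± 0.641 in trained libraries had the smallest unadjusted p (limma log2 fold change -0.23, SE 0.077, adjusted p = 0.637). The highest trained library stood just above the lowest control library. Olig2 had a log2 fold change of -0.31 (SE 0.10, limma adjusted p = 0.637) and Olig1, at 28.6, 33.2 and 32.3 in trained libraries, one of -0.33 (SE 0.12, limma adjusted p = 0.637). Cspg4 had one of -0.17 (SE 0.076, limma adjusted p = 0.642) and Sox10 one of -0.12 (limma adjusted p = 0.814). Without control replicate 2 the mature median became 0.027 and 15 of 32 members were below 0, in place of 24 of 32. Leaving out trained replicate 1 gave -0.039, leaving out control replicate 1 gave -0.24 and leaving out trained replicate 2 gave -0.22.

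Hapln2, Olig2 and Cspg4 were the members for which all 6 libraries with the H2A.Z hairpin lay below all 3 control libraries. These were 3 of 32 members, or 9.38%, beside 2.0% of all genes tested. The members were chosen with earlier results of these data known, so this count is not a test. The margin was narrow for Cspg4, with 1.62 FPKM in naive replicate 2 against 1.66 in control replicate 2. It was also narrow for Olig2, with 9.71 in naive replicate 3 against 9.76 in control replicate 3. None of these 3 genes passed the threshold in either comparison or in any alternative that kept them. Hapln2 and Cspg4 fall below the filter of 5 FPKM and have no value there. Over the other alternatives the log2 fold change of Hapln2 lay between -0.75 and -0.41 in naive against control and between -0.67 and -0.40 in trained against control, with limma adjusted p of 0.0999 to 0.496 and 0.173 to 0.968.

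**Figure D3:**
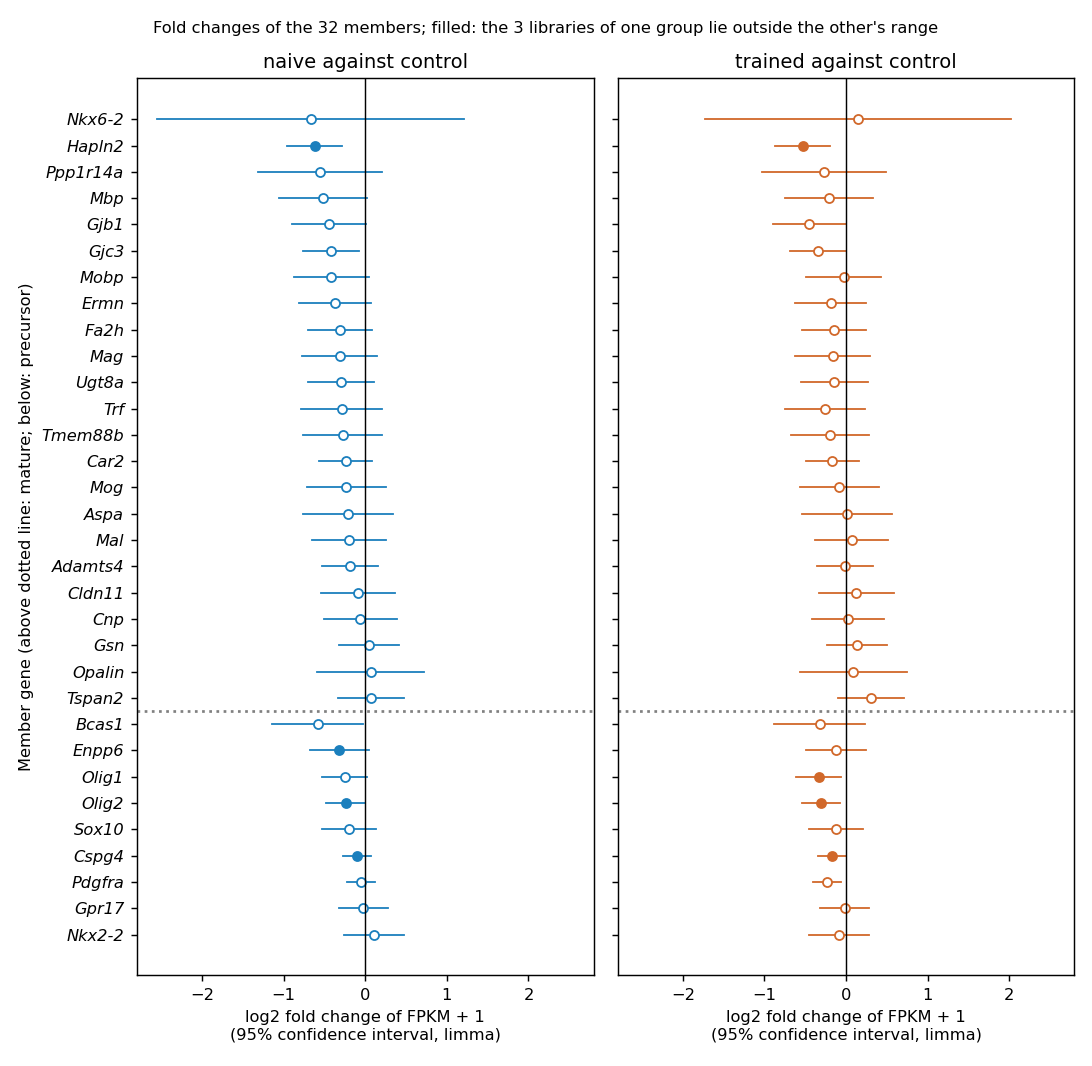
Log2 fold change of FPKM + 1 with its 95% confidence interval from limma (horizontal axes) for each of the 32 members (rows, mature above the dotted line) in naive against control and trained against control, which share the control libraries; filled points mark members whose groups do not overlap. In naive against control 28 of 32 estimates lie below 0 and in trained against control 24 of 32, with 0 members past the threshold in either.

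Trained and naive libraries, which both carry the H2A.Z hairpin, were then compared, so that training is the labelled difference. Mature members tended to stand higher in trained libraries, 22 of 23 by their estimates, with a median log2 fold change of 0.16, beside a median of -0.020 for all genes, of which 58.5% were below 0. With the dentate covariate that median was 0.0039. Precursor members were split, with 4 of 9 above 0 and a median of -0.065. In limma 0 of 32 members passed (smallest adjusted p = 0.591), beside 0.0% of all genes lower and 0.00811% higher. At an unadjusted p under 0.05, 1 member was lower and 0 higher, beside 5.53% and 2.74% of all genes. Mobp, at 51.0, 66.7 and 66.3 FPKM in trained libraries, was the mature member with the smallest p (limma log2 fold change 0.38, SE 0.20, adjusted p = 0.636). Mal, a proteolipid gene, stood at 71.2 ± 19.8 in naive and 84.7 ± 12.3 in trained libraries (log2 fold change 0.27, limma adjusted p = 0.745). Tspan2 had a log2 fold change of 0.24 (limma adjusted p = 0.753). Mbp at 0.31, Mag at 0.15, Mog at 0.15 and Cnp at 0.083 overlapped between the groups (limma adjusted p = 0.756, 0.863, 0.872 and 0.928).

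Pdgfra was the 1 member whose ranges did not overlap in trained against naive, beside 9.16% of all genes that were lower without overlap and 5.79% that were higher. Its naive libraries at 7.0 to 7.23 all stood above its trained libraries at 5.5 to 6.77 (limma log2 fold change -0.18, SE 0.077, adjusted p = 0.591). Enpp6 had a log2 fold change of 0.20 (limma adjusted p = 0.767), Cspg4 one of -0.067, Olig2 one of -0.065 and Sox10 one of 0.074 (limma adjusted p = 0.831, 0.886 and 0.913). Without naive replicates 1, 2 and 3 in turn the mature median was 0.033, 0.070 and 0.33, and without trained replicates 1 and 2 in turn it was 0.26 and 0.059. The precursor median was 0.042 without naive replicate 3, 0.010 without trained replicate 1 and -0.11 without trained replicate 2.

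Ratios within a library set the other mature genes against Mbp. Relative to 100 FPKM of Mbp, the level of Tspan2 was 4.33, 3.98 and 4.77 in control, 7.41, 6.55 and 5.79 in naive and 5.93, 6.16 and 6.71 in trained libraries. All 6 libraries with the H2A.Z hairpin were above the control ones. The same held for Cnp, at 15.7, 14.6 and 18.3 in control, 23.2, 22.6 and 20.5 in naive and 18.4, 19.5 and 18.9 in trained libraries, and for Cldn11, Mal and Adamts4. These 5 were among 21 mature members compared with Mbp, beside 1.96% of all genes taken relative to Mbp, and both comparisons share the control libraries and the level of Mbp. In naive against control, 7 of 21 ratios were higher without overlap and 0 lower, beside 12.2% and 0.0487% of all genes taken relative to Mbp. In trained against control, 6 of 21 were higher and 1, Gjb1, was lower, beside 3.62% and 0.195%. In trained against naive 0 of 21 were higher and 8 lower, beside 0.105% and 4.15%. Within each group most mature members shared the highest and lowest library of Mbp, which was less so over all genes. Swings of Mbp between libraries thus cancel more in their ratios than in those of most genes. The shares over all genes are therefore not a like measure for these counts.

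Hapln2 per 100 FPKM of Mbp stood at 0.995, 0.755 and 1.06 in control, 0.842, 0.796 and 0.726 in naive and 0.722, 0.775 and 0.578 in trained libraries, which overlap. The ratio of Tspan2 to Hapln2, a pair chosen after its values were seen, was 435 to 528 FPKM of Tspan2 per 100 of Hapln2 in control, 797 to 881 in naive and 796 to 1161 in trained libraries. No test was made of these ratios, which do not tell which gene of a pair differed.

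**Figure D4:**
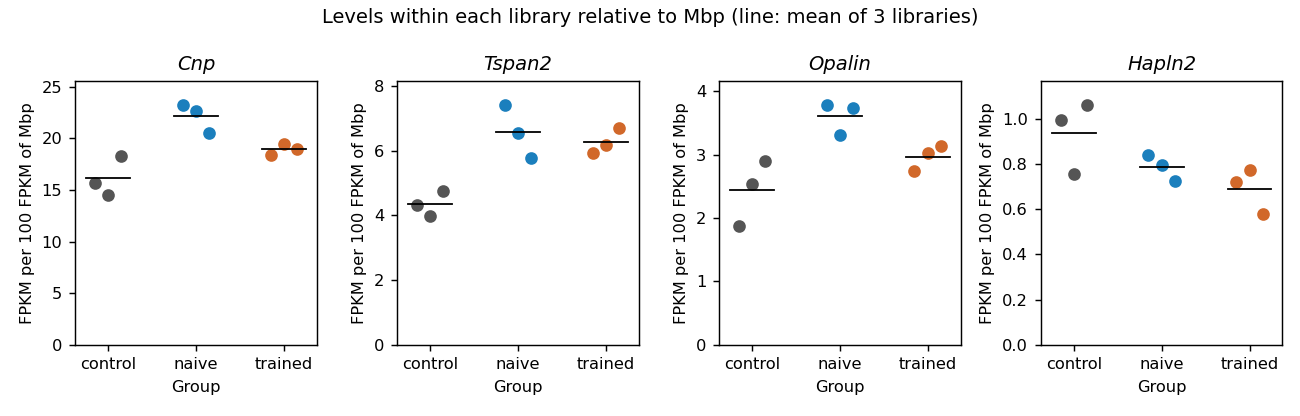
FPKM of Cnp, Tspan2, Opalin and Hapln2 per 100 FPKM of Mbp in the same library (vertical axes, from 0) for the 3 control, 3 naive and 3 trained libraries (points; line: mean). Tspan2 lies at 3.98 to 4.77 in control and at 5.79 to 7.41 in the other 6 libraries, while Hapln2 overlaps between groups.

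Other genes of the lineage came from lists that hold no member. Of 25 further genes of mature oligodendrocytes, 23 were tested, and 20 of these were below 0 in naive against control (median log2 fold change -0.30) and 20 in trained against control (median -0.21). None passed the threshold in limma, and 5 and 2 of them were lower at an unadjusted p under 0.05, beside 5.69% and 3.8% of all genes. Estimates below 0 made up 44.8% of all genes in naive against control and 52.7% in trained against control. These shares also stand beside the counts of the lists that follow. The lipid transfer gene Sec14l5 stood at 2.31 ± 0.410 in control libraries and 1.27 ± 0.121 in naive ones, Anln, which encodes anillin, at 7.75 ± 1.12 and 5.23 ± 1.13, and Ndrg1, a gene of myelin upkeep, at 28.2 ± 3.75 and 21.5 ± 4.14 (limma adjusted p = 0.225, 0.249 and 0.277). Enpp2, which encodes autotaxin, stood at 44.5, 77.0 and 153 in control libraries and 34.3, 37.4 and 46.8 in naive ones (limma adjusted p = 0.273). It is made by choroid plexus as well, and the choroid plexus gene Ttr stood at 33.2, 132 and 764 in the same control libraries. The part of choroid plexus RNA in the level of Enpp2 was not tested.

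Of 17 further genes of precursors, 16 were tested, 8 above and 8 below 0 in naive against control (median 0.0087) and 7 above and 9 below in trained against control (median -0.013). Emid1, a gene of an extracellular protein, stood at 1.31 ± 0.0671 in control, 1.69 ± 0.0996 in naive and 1.76 ± 0.0510 in trained libraries. Both H2A.Z shRNA groups were above every control library (limma adjusted p = 0.252 and 0.557). In naive and in trained against control, 11.2% and 6.4% of all genes were higher without overlap. Matn4, Xylt1 and Tmem100 were the next by p in naive against control, with log2 fold changes of 0.14, -0.14 and 0.11.

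Genes of sphingolipid and long-chain fatty acid synthesis, which feed the myelin membrane, were below 0 in 15 of 17 in naive (median -0.11) and 14 of 17 in trained libraries (median -0.13). Elovl6, which encodes a fatty acid elongase, stood at 15.3 ± 0.634 in control libraries and 12.4 ± 0.667 in naive ones (limma adjusted p = 0.238), and Fasn, the fatty acid synthase gene, at 22.2 ± 1.31 and 20.2 ± 0.453 (limma adjusted p = 0.284). Scd1, a desaturase gene, and Gal3st1, which makes sulfatide, had log2 fold changes of -0.25 and -0.31. Cholesterol synthesis genes were above 0 in 16 of 21 in naive (median 0.057) and below 0 in 14 of 21 in trained libraries (median -0.055). Idi1, an isomerase of that pathway, stood at 14.3 ± 0.192 in control libraries and 18.6 ± 0.692 in naive ones (limma adjusted p = 0.169), followed by Sc5d, Fdps and Srebf2 at 0.16, 0.20 and -0.13 on the log2 scale.

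Genes of the node of Ranvier and its flanks, which are largely neuronal, were below 0 in 10 of 13 in naive (median -0.11) and 11 of 13 in trained libraries (median -0.064). The sodium channel genes Scn8a, at 35.1 ± 0.173 in control and 31.5 ± 1.19 in naive libraries, and Scn1a, at 15.8 ± 2.33 and 11.7 ± 0.357, had the smallest p in naive against control (limma adjusted p = 0.238 and 0.253). Nfasc, the adhesion gene neurofascin, and the potassium channel gene Kcna2 followed at -0.16 and -0.26. Growth factor and signalling genes of the lineage were below 0 in 12 of 17 in both comparisons (median -0.044 and -0.043). They included Hes5, a Notch target, at 3.12 ± 0.321 in control, 3.98 ± 0.190 in naive and 2.66 ± 0.337 in trained libraries (limma adjusted p = 0.249 in naive against control). Id2, Fgfr3 and Jag1 stood at 0.17, -0.14 and 0.17 on the log2 scale. None of the genes in these lists passed the threshold in limma in any of the 3 comparisons.

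Markers of other cells were summed in each library as well. All 10 markers of dentate granule cells had estimates above 0 in naive and in trained libraries against control (median log2 fold change 0.76 and 0.36), and their summed level was 138 to 265 FPKM in control, 248 to 317 in naive and 181 to 298 in trained libraries, which overlap. The control libraries with the lower dentate level, replicates 2 and 3, had mean log2 levels of 3.29 and 3.17 against 4.08 in replicate 1, and the mean of the mature members was 5.13 and 4.67 against 4.55. In naive replicates 1, 2 and 3 the dentate means were 4.34, 4.05 and 4.29, and the mature means 4.24, 4.36 and 4.90. Naive replicate 3 thus stood high in both. In trained replicates 1, 2 and 3 the dentate means were 4.24, 3.55 and 3.77, and the mature means 4.40, 4.88 and 4.77. Whether the dentate and mature levels go together was not tested. No dentate marker was at 0 in any library.

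Markers of CA1 pyramidal neurons were below 0 in 9 of 9 in naive libraries (median -0.31; summed level 305 to 417 FPKM in control and 269 to 308 in naive) and in 8 of 9 in trained libraries (median -0.090; 286 to 353). Microglial markers were above 0 in 13 of 13 and 12 of 13 (medians 0.46 and 0.37), with summed levels of 241 to 299 in control, 307 to 575 in naive and 301 to 442 in trained libraries. Astrocyte markers were above 0 in 9 of 11 and 5 of 11 (medians 0.17 and -0.0094; summed levels of 919 to 988, 994 to 1149 and 929 to 1031). Each marker of these 3 lists was above 0 FPKM in every library. None of the markers of these lists passed in limma, and the part of other cell types in the levels of the oligodendrocyte genes was not tested.

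With the mean of the 25 further mature oligodendrocyte genes as a covariate, an alternative added after the data were seen, 13 of 32 members were below 0 in naive against control and 11 of 32 in trained against control. Among genes described above, chosen with their values seen, Hapln2 stood at -0.41 and -0.40, Tspan2 at 0.37 and 0.49, Opalin at 0.55 and 0.38 and Cnp at 0.28 and 0.23, with limma adjusted p between 0.290 and 0.659 for these 4 genes.

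**Figure D5:**
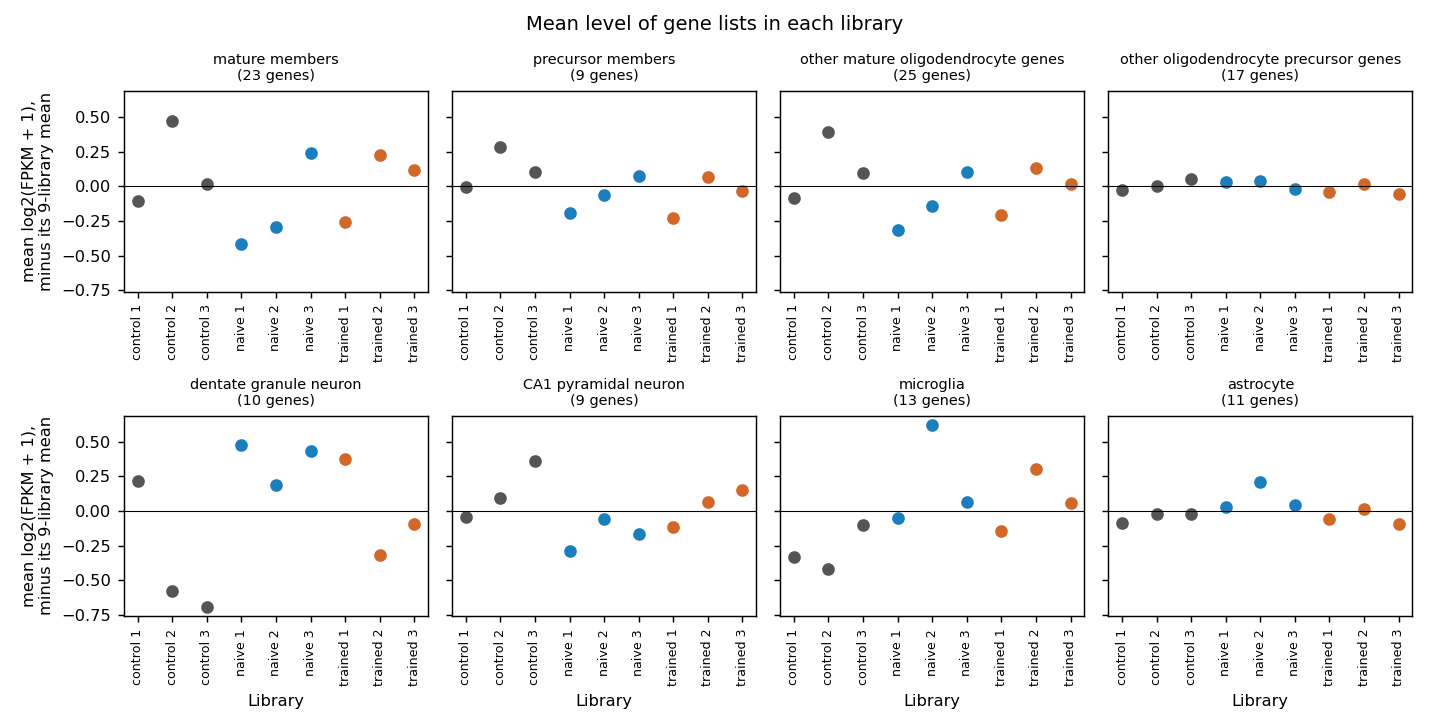
Mean log2(FPKM + 1) of 8 gene lists in each of the 9 libraries, minus the mean of the 9 (vertical axes; points coloured by group). Mature members and the further mature oligodendrocyte genes are both highest in control replicate 2 and lowest in naive replicate 1, while the further precursor genes stay between 2.27 and 2.38 before centring.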

How the data were processed

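Polyadenylated RNA from CA1 was sequenced in 9 libraries of 3 groups, whose replicates the labels call biological. Per the submitters' processing notes, the tools were FastQC, TopHat 1.4.0, Cufflinks and Cuffdiff with build mm10, and the authors deposited FPKM values per gene and library. Which gene annotation and filters went into them was not given in the sources used here. Rows whose names read as dates (27) were left out, as were 5649 rows at 0 in every library. Values were taken as log2(FPKM + 1), a pseudocount of 1, which understates fold changes of genes of low level. The filter kept 12327 genes (mean FPKM of 1 or more), fitted with limma 3.58.1 in R 4.3.3 (3 groups, trend, two-sided, Benjamini-Hochberg over all genes per comparison, threshold 0.05). No permutation test was run, since with 3 libraries a group its exact p is at least 0.1. Positions are from GENCODE M21 on GRCm38, the assembly of mm10. Depth was estimated in 2186 genes with 1 transcript, and no counting interval was computed. The fit was tried on simulated data in which genes varied independently of each other, so this does not cover genes that vary together, as the mature members did.

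The members and lists were chosen with earlier results of these data known, so no list was tested. Any member could be named with its level. Tests were given for Mbp, Mag, Mog, Cnp, Pdgfra, Cspg4, Olig2 and Sox10 and for the members with the smallest unadjusted p in each comparison (6 mature and 3 precursor against control, 3 and 2 in trained against naive). Outside this rule, the test of Enpp6, the next precursor member by p in naive against control, was given as well. Of other lists, up to 4 genes with the smallest p in naive against control could be named. Alternatives changed the scaling (median of ratios, quantile), the pseudocount (0.1), the filter (none, 5 FPKM) and the fit (array quality weights, just the groups compared, dentate markers as a covariate, each library left out in turn). A covariate of further mature oligodendrocyte genes and the removal of genes listed at 0 in any library were added after seeing the data.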

Additional observations from a re-analysis of the deposited data

How the results depend on the processing

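No member passed the threshold under any alternative, in any of the 3 comparisons. No paired analysis was possible because the labels give no replicate numbers that pair samples across groups. With the dentate covariate the mature median was -0.00015 in naive against control, -0.0027 in trained against control and 0.0039 in trained against naive, and the precursor median was -0.022, -0.13 and -0.11. With the oligodendrocyte covariate the mature median was 0.040, 0.080 and 0.037. Members with a mean under 5 FPKM have no value under that filter. Over the fits without a single library, the mature median ranged from -0.45 to -0.11 in naive against control, -0.24 to 0.027 in trained against control and 0.033 to 0.33 in trained against naive. The precursor median ranged from -0.31 to -0.13, -0.25 to -0.12 and -0.11 to 0.042.

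Counts over all genes were less stable. In naive against control (0 higher, 0 lower) they were 2 higher with a filter of 5 FPKM and 3 higher with array weights, and 0 to 12 higher and 0 to 5 lower with a library left out. In trained against control (1 higher, 0 lower) they were 0 higher with no filter, with the dentate covariate and with the oligodendrocyte covariate, 3 higher with only the groups compared, and 0 to 16 higher and 0 to 7 lower with a library left out. In trained against naive (1 higher, 0 lower) they were 1 lower with only the groups compared and with the dentate covariate, and 0 to 2 higher and 0 to 21 lower with a library left out.

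Estimates of several members changed sign, and the cause was not tested. In naive against control with the dentate covariate, Mag stood at 0.018, Mog at 0.082, Cnp at 0.30, Pdgfra at 0.13 and Sox10 at 0.067, and with the oligodendrocyte covariate these 5 stood at 0.040, 0.13, 0.28, 0.020 and 0.049. With a library left out Cnp ranged from -0.23 to 0.092, being 0.092 without control replicate 2 and 0.065 without naive replicate 1. In trained against control, Mog was 0.066 and Sox10 0.0015 with the dentate covariate, and Mbp, Mag, Mog and Sox10 were 0.037, 0.051, 0.14 and 0.026 with the oligodendrocyte covariate. Without control replicate 2 these 4 were 0.018, 0.027, 0.078 and 0.00096, the highest of their values with a library left out, and the lowest were -0.34, -0.32, -0.22 and -0.24. Mog was 0.053 without trained replicate 1. Cnp was -0.029 with array weights and ranged from -0.12 to 0.18 with a library left out, being -0.12 without control replicate 1, -0.082 without trained replicate 2 and -0.0072 without trained replicate 3. In trained against naive with the dentate covariate, Mag was -0.026, Mog -0.017, Cnp -0.11 and Sox10 -0.066, and with the oligodendrocyte covariate Cnp was -0.051 and Sox10 -0.023. With a library left out Cnp ranged from -0.043 to 0.25, being -0.043 without naive replicate 1 and -0.021 without trained replicate 2. Olig2 ranged from -0.14 to 0.014, being 0.014 without naive replicate 3 and 0.010 without trained replicate 1.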

Other observations

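Of the genes of Schwann cell myelin, Prx stood at 0.281 to 0.459 FPKM and Ncmap at 0.113 to 0.288 over the 9 libraries, and Drp2 at 9.33 to 11.8.

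Choroid plexus and ependymal markers summed to 42.1 to 803 FPKM in control, 13.2 to 33.6 in naive and 47.2 to 110 in trained libraries, and all 5 genes tested were below 0 in naive against control (median log2 fold change -1.04) and in trained against control (median -0.68). Interneuron markers were below 0 in 9 of 10 in both comparisons (medians -0.13 and -0.067), with Pvalb at 44.7 ± 11.6 in control and 31.4 ± 2.20 in naive libraries (limma adjusted p = 0.293). Markers of CA2 and CA3 neurons were above 0 in 5 of 8 and 3 of 8 (medians 0.041 and -0.016), those of the neocortex in 4 of 6 and 2 of 6 (0.071 and -0.10), those of the thalamus in 2 of 4 and 2 of 4 (-0.0054 and 0.044) and endothelial markers in 7 of 9 and 3 of 9 (0.084 and -0.012).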
